A study of Mus musculus and Rattus norvegicus with 53 samples.

Results

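The 9 genes described here encode cytokines of the interleukin-6 (IL-6) family, their receptors and the signalling proteins below them, as they were measured in Schwann cells (SCs), the glia of peripheral nerve. The rule for them is by symbol alone, as the rows Cntf, Lif, Il6, Clcf1, Il6st, Lifr, Osmr, Stat3 and Socs3 of the mouse gene counts, and all 9 are among the 24016 genes listed. The study asked how SCs change after a nerve is cut, and whether those that enter the new tissue between the stumps, the bridge, differ from those that remain in the distal stump. SCs were sorted by fluorescence from the sciatic nerves of male and female P0A-Cre;Rosa26 tdTomato mice aged 6 to 8 weeks, and polyadenylated RNA was amplified with Smart-seq2. Pooled nerves gave 4 libraries each of intact SCs (iSCs, from uncut contralateral nerves), distal SCs (dSCs) and bridge SCs (bSCs), at day 6 after transection for the last 2 groups, with the nerves of 3 mice in each library. Single nerves gave 5 libraries of iSCs, 3 of dSCs on each of days 1 and 2, and 3 of dSCs and 3 of bSCs on each of days 4, 6, 8 and 10. Every group, the intact nerves included, carried the reporter, which is switched on by Cre recombinase under the promoter of myelin protein zero (P0), so that tdTomato marks cells that once made Cre and their descendants, whatever their present state.

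Cytokines of this family bind receptors that share the signal-transducing chain IL6ST, also called gp130. LIF pairs IL6ST with LIFR, oncostatin M pairs it mainly with OSMR, CNTF and CLCF1 use LIFR with a CNTF-binding chain, and IL-6 uses IL6ST with its own receptor chain. The receptors activate JAK kinases and the transcription factor STAT3, which switches on Socs3, whose product blocks the receptor in a feedback loop. In nerve, CNTF is best known as a factor kept in myelinating SCs, and LIF and IL-6 as cytokines made by SCs and other nerve cells after injury.

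Between 11435463 and 22617054 reads were counted on genes in the pooled-nerve libraries and between 9240883 and 22426128 in the single-nerve libraries. The bSC and dSC libraries of 1 mouse at day 4 of the single nerves (replicate 1 of both groups) were almost alike, with a chi-square per degree of freedom of 3.96 between their counts against at least 47.9 for the rest of the 1081 pairs of libraries, and they differed by more than sampling noise. Another 4 single-nerve libraries (iSC replicates 0 and 1, dSC day 1 replicate 1 and dSC day 2 replicate 0) stood apart with 10042 to 11138 detected genes, against at least 11983 in the others. Each single-nerve result was therefore also computed without the like pair and without these 4 libraries. All 7 SC markers listed had counts in every group, and their summed level in pooled nerves was 4934 to 11714 CPM (counts scaled to library size) in iSCs, 1258 to 2608 in bSCs and 1380 to 3272 in dSCs. Markers of fibroblasts were abundant as well, with 9294 to 43689 CPM over 8 genes in pooled iSCs, 14407 to 26847 in bSCs and 27579 to 40199 in dSCs. The 12 macrophage markers listed summed to 253 to 6115 CPM in iSCs, 2581 to 8078 in bSCs and 10643 to 17657 in dSCs, and 0 of them were at 0 throughout a group. By flow cytometry, the paper reports that most sorted tdTomato-positive cells of each region carried the SC protein S100β, and that hardly any tdTomato-negative cells did. In bulk samples of this kind, a change in the level of a gene per cell and a change in the number of cells that carry it cannot be told apart.

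The members differed widely in level. Scaled to transcript length, as CPM per kilobase of annotated exon in pooled iSCs, Socs3 stood at 131 ± 95.7 (SD, n = 4), Il6st at 64.4 ± 9.79, Stat3 at 23.7 ± 8.64, Lifr at 20.6 ± 6.53 and Osmr at 9.76 ± 1.39. The ligands were far lower, at 1.23 ± 1.34 for Lif, 0.515 ± 1.03 for Il6, 0.307 ± 0.217 for Clcf1 and 0.251 ± 0.295 for Cntf. Stat3 and Lifr did not differ beyond their spread, nor did the 4 ligands among themselves. All 9 genes are placed on the mouse build NCBIM37 (mm9), the build of the counts, and values that follow are CPM scaled by edgeR's TMM factors, within one experiment at a time.

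Cntf, on chromosome 19 (12838150 to 12840122, minus strand), could barely be read from these counts. In pooled nerves the iSC libraries held 0.468, 0.610, 0 and 0 CPM, the bSC libraries 0, 0.585, 0 and 0.0466 CPM, and the 4 dSC libraries 0 counts each, a count that allows up to 0.202 to 0.230 CPM per library. In single nerves 7 of 35 libraries had any count, with at most 0.925 CPM. Of the 1073 exonic bases of Cntf in the GENCODE M1 annotation of this build, 78.9% are shared with transcripts of its neighbour Zfp91, and HTSeq leaves out reads that lie on more than 1 gene. The count table also lists a joint gene, Zfp91Cntf, with 0 counts in all groups, while Zfp91 itself stood at 56.7 ± 17.1 CPM (SD, n = 4) in pooled iSCs. Low expression of Cntf and the loss of shared reads cannot be told apart in these counts, and Cntf did not reach the count minimum for a test in either experiment.

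Of the other ligands, Lif had its largest values in the bridge, but no ligand among the members passed the test in pooled nerves. Lif (chromosome 11, 4157560 to 4172517, plus strand) encodes leukaemia inhibitory factor. Its bSC libraries held 21.8, 58.2, 6.19 and 30.1 CPM. The iSC libraries held 3.28, 2.65, 1.51 and 14.0 CPM, and the dSC libraries 5.43, 0, 11.5 and 3.51 CPM. Of the 4 bSC libraries 3 were above all iSC and dSC libraries, and the lowest bSC library lay within both ranges. The log2 fold change of Lif between bSCs and iSCs was 2.44 (SE 1.27, adjusted p = 0.233), and between bSCs and dSCs it was 2.51 (SE 1.27, adjusted p = 0.282). Clcf1 (chromosome 19, 4214238 to 4223490, plus strand), which encodes cardiotrophin-like cytokine factor 1, held at most 1.82 CPM in iSCs, 16.9 CPM in dSCs and 8.49 CPM in bSCs, and each group had a library with 0 counts. Il6 (chromosome 5, 30339701 to 30346508, plus strand) had counts in 1 of 4 iSC, 2 of 4 dSC and 1 of 4 bSC libraries, at no more than 2.24 CPM, and was not tested in the pooled nerves.

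Osmr, the receptor chain for oncostatin M, was the member that differed most clearly between regions in the pooled nerves. It lies on chromosome 15 (6763577 to 6824313, minus strand). The iSC libraries held 54.4, 51.5, 41.4 and 41.5 CPM. The dSC libraries held 134, 265, 85.01 and 144 CPM. The bSC libraries held 40.9, 14.7, 23.8 and 18.7 CPM. All dSC libraries were above all iSC libraries, and all bSC libraries were below them, so that none of the 3 groups overlapped. In edgeR's quasi-likelihood test Osmr rose in dSCs against iSCs, with a log2 fold change of 1.73 (SE 0.39, adjusted p = 0.0216), and was lower in bSCs than in dSCs, with a log2 fold change of -2.68 (SE 0.40, adjusted p = 0.00415). Between bSCs and iSCs the log2 fold change was -0.94 (SE 0.38, adjusted p = 0.115), which passed only without bSC replicate 1 (-1.29, adjusted p = 0.0381) among the alternatives run. With the animal label as a replicate block the first difference had an adjusted p of 0.0972 and the second of 0.0323. The rise in dSCs also missed the threshold without iSC replicate 1, 2 or 4 (adjusted p = 0.0593, 0.0622 and 0.0779) or without dSC replicate 2 or 5 (adjusted p = 0.0713 and 0.0519), while the difference between bSCs and dSCs passed without any 1 of the 12 libraries (adjusted p from 0.00243 to 0.0137). Libraries deposited as a single lane held 85.01 CPM in 1 dSC library, 41.4 and 41.5 CPM in 2 iSC libraries and 23.8 CPM in 1 bSC library. Because the 3 groups did not overlap, the order of these libraries could not differ, and it adds no separate evidence. Summed macrophage markers were also higher in every dSC library than in every iSC or bSC library (above), and summed fibroblast markers were higher in every dSC library than in every bSC library. Their part in the Osmr differences was not tested.

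The promoter of Osmr is shown as that of the member with the largest regional difference, from 250 bases before to 50 bases after the RefSeq transcription start (GRCm38.p6, chr15:6874264-6874563, minus strand), with the match to the AP-1 motif TGANTCA in capitals.
Osmr: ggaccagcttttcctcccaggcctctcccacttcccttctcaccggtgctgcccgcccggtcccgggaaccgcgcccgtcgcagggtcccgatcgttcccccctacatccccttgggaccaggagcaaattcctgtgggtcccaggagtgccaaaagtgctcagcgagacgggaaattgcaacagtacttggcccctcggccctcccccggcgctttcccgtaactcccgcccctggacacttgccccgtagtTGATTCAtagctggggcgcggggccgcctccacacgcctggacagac

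**Figure D1:**
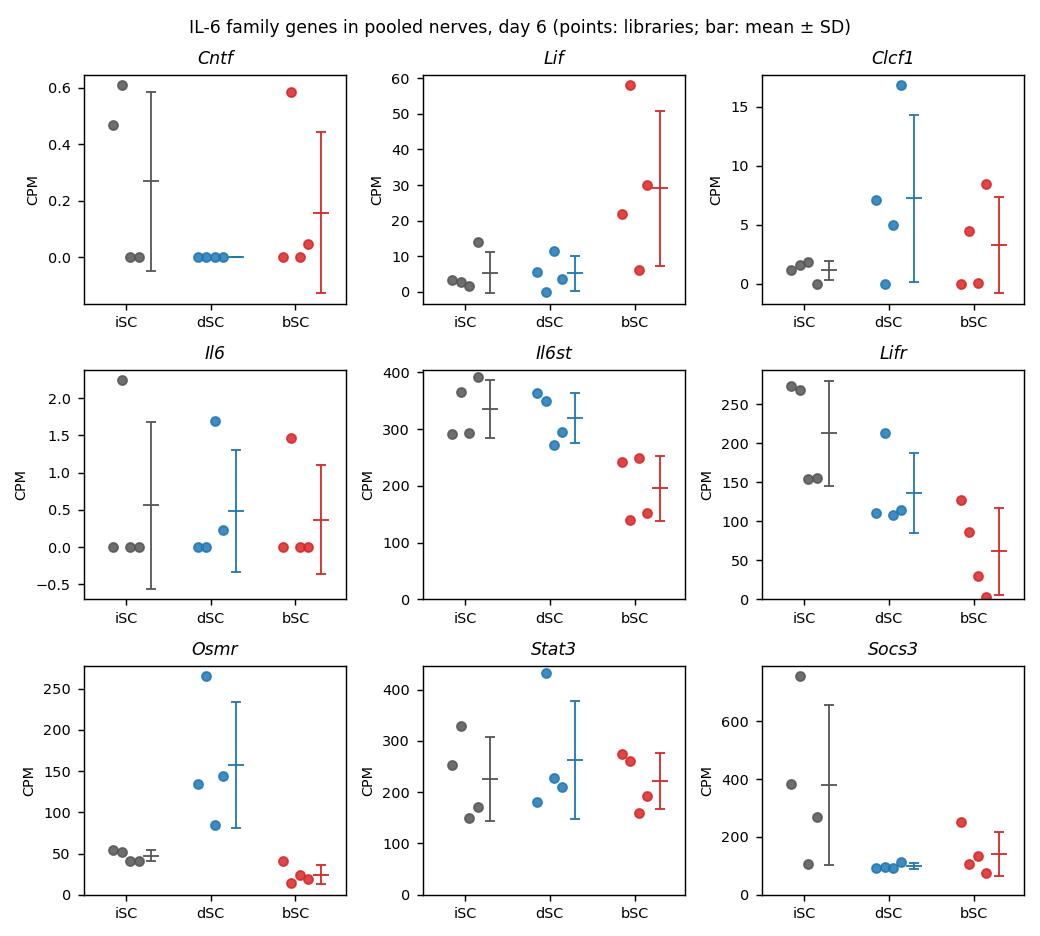
CPM of the 9 members (y axis, 1 panel per gene, own scale) in the 4 iSC, 4 dSC and 4 bSC libraries of pooled nerves, as points, with the mean ± SD beside them. Osmr separates all 3 groups, bSC libraries are lowest for Il6st and Lifr apart from 1 bSC library for Lifr, and Socs3 is spread from 106 to 757 CPM in iSCs.

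Of the 2 receptor chains for LIF, Il6st fell in bSCs against iSCs, and Lifr, lower there in every library, did not pass edgeR's test. Il6st (chromosome 13, 113265216 to 113297068, plus strand) held 291, 366, 293 and 392 CPM in iSCs, 364, 349, 272 and 294 CPM in dSCs, and 242, 139, 248.6 and 153 CPM in bSCs. The iSC and dSC ranges overlapped, and every bSC library was below every library of the other groups. The log2 fold change of Il6st between bSCs and iSCs was -0.78 (SE 0.24, adjusted p = 0.0459), close to the threshold. That call was lost with the replicate block (adjusted p = 0.121), without a filter on low counts (0.0649), in a fit of these 2 groups alone (0.0717) and on leaving out any 1 of 10 libraries (up to 0.12), all but bSC replicates 1 and 3. Against dSCs the log2 fold change was -0.71 (SE 0.24, adjusted p = 0.1, and 0.0308 in DESeq2), and against iSCs dSCs showed -0.07 (SE 0.24, adjusted p = 0.947). Summed SC markers were lower in every bSC and dSC library than in every iSC library (above), and their part in the differences of Il6st, Lifr and Socs3 from iSCs was not tested.

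Lifr (chromosome 15, 7079559 to 7147489, plus strand), the LIF receptor, followed the same order with more spread. Its libraries held 274, 269, 154 and 155 CPM in iSCs, 110, 214, 108 and 115 CPM in dSCs, and 128, 86.5, 29.2 and 3.45 CPM in bSCs. All bSC libraries were below all iSC libraries, and the dSC libraries overlapped both. The log2 fold change of Lifr between bSCs and iSCs was -1.79 (SE 0.71, adjusted p = 0.11), which missed the threshold in edgeR, while DESeq2 gave an adjusted p of 0.0427. Between dSCs and iSCs it was -0.64 (SE 0.69, adjusted p = 0.785).

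Stat3 (chromosome 11, 100746412 to 100800854, minus strand) showed no difference between regions larger than its spread. Its CPM was 226 ± 82.3 in iSCs, 263 ± 115 in dSCs and 222 ± 54.7 in bSCs (SD, n = 4 each), and all groups overlapped. The log2 fold change was 0.22 (SE 0.33, adjusted p = 0.866) in dSCs and -0.03 (SE 0.33, adjusted p = 0.971) in bSCs against iSCs. These values are of RNA, and do not give the phosphorylated, active form of STAT3.

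Socs3 (chromosome 11, 117827393 to 117831361, minus strand), the feedback inhibitor, fell in dSCs against iSCs. The iSC libraries held 384, 757, 106 and 269 CPM. The dSC libraries held 92.1, 96.3, 91.8 and 113 CPM, and the bSC libraries 251, 107, 133 and 74.9 CPM. The dSC libraries lay within a narrow range, which the lowest iSC library entered, whereas the other 3 iSC libraries were above all dSC and bSC libraries. In edgeR's test the log2 fold change of Socs3 between dSCs and iSCs was -1.95 (SE 0.50, adjusted p = 0.0392). With the replicate block the adjusted p was 0.0508. The threshold was also missed on leaving out any 1 of 8 libraries (iSC replicates 1 and 2, bSC replicates 2 and 3, and each dSC library), with a log2 fold change of -1.33 and an adjusted p of 0.159 without iSC replicate 2. In bSCs against iSCs the log2 fold change was -1.42 (SE 0.49, adjusted p = 0.0695), where DESeq2 gave an adjusted p of 0.0227 and edgeR 0.0224 without iSC replicate 4 and 0.0322 without bSC replicate 1. Fos and Junb, which are immediate early genes, ordered the iSC libraries as Socs3 did, from 7409 and 1868 CPM in replicate 2 to 847 and 174 CPM in replicate 4, and their part in the Socs3 difference was not tested.

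The promoter of Socs3 is shown because it was the only one of the 8 members' promoters with a match to the STAT motif TTCNNNGAA, given in capitals (RefSeq, GRCm38.p6, chr11:117969317-117969616, minus strand, the same span around the start).
Socs3: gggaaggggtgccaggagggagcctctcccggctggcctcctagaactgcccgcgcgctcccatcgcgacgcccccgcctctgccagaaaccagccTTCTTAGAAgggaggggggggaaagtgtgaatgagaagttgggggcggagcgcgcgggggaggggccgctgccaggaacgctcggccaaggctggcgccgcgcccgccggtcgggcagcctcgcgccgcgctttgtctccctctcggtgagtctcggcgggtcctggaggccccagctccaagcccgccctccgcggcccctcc
The STAT motif was found in 8.3% and the AP-1 motif in 7.81% of 32851 mouse promoters of this length, on both strands. The AP-1 motif was present in the promoters of Osmr, Lif, Il6 and Cntf, and neither motif in those of Il6st, Lifr (which has 2 listed starts) and Stat3. A match is a run of letters and not a bound site.

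**Figure D2:**
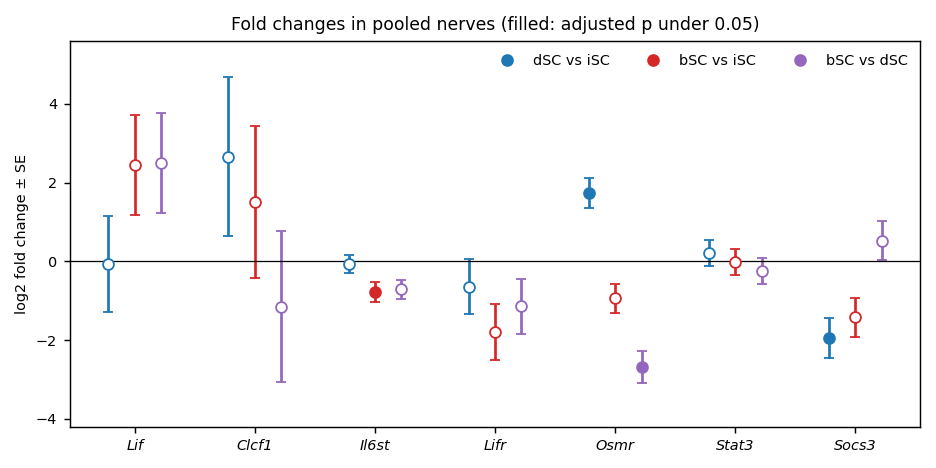
Log2 fold change ± SE (y axis) of the 7 members tested in pooled nerves (x axis), for dSCs against iSCs, bSCs against iSCs and bSCs against dSCs. Filled points passed an adjusted p of 0.05: Osmr at 1.73 and Socs3 at -1.95 in dSCs, Il6st at -0.78 in bSCs against iSCs, and Osmr at -2.68 in bSCs against dSCs.

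Counted over the family, 2 of the 7 members tested passed in dSCs against iSCs, 1 higher and 1 lower, where 5.32% of all 13751 genes tested did (2.63% higher and 2.69% lower). In bSCs against iSCs 1 of 7 was lower, against 14.7% of all genes called (7.24% higher and 7.46% lower). In bSCs against dSCs 1 of 7 was lower, against 5.43% of all genes called (2.31% higher and 3.11% lower). The comparisons with iSCs share the same control libraries. DESeq2 called 2, 3 and 2 of the 7 in the same order, and 10.1%, 22.6% and 14.1% of all genes. The median log2 fold change of the 7 members was -0.07, -0.78 and -0.71, beside -0.02, -0.16 and -0.07 for all genes tested. With 7 members, these counts do not set the family apart from other genes.

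The other genes of the pathway were 59 from a list of ligands, receptors, kinases, inhibitors and known STAT3 response genes. Of 54 tested, 8 passed in dSCs against iSCs (6 higher, 2 lower), 11 in bSCs against iSCs (5 higher, 6 lower) and 6 in bSCs against dSCs (2 higher, 4 lower). Of all genes tested, 5.32%, 14.7% and 5.43% passed in the same order. Their median log2 fold change was -0.11, -0.17 and -0.36, beside the medians of all genes given above.

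Osm, the gene of oncostatin M, was not detected in iSCs, with 0 counts in all 4 libraries. In dSCs it held 18.7, 12.4, 5.54 and 18.7 CPM, and in bSCs 4.44, 9.44, 11.3 and 6.11 CPM. Set against 3 counts per iSC library, the mean of Osm was at least 64.6-fold higher in dSCs (edgeR, adjusted p = 0.00233). In bSCs the mean was at least 36.6-fold higher (edgeR, adjusted p = 0.00124). These folds are of group means and do not cover the spread between libraries, of which the lowest held 5.54 CPM in dSCs and 4.44 CPM in bSCs. With the replicate block the adjusted p was 0.0534 in dSCs and 0.0352 in bSCs. Oncostatin M is known as a product of macrophages, whose markers summed to more in every dSC library than in every iSC or bSC library, and their part in the Osm counts was not tested. Among 5 other receptor genes, Il11ra1, the IL-11 receptor chain, fell in bSCs against iSCs (-1.55, SE 0.42, adjusted p = 0.0254; 0.155 with the replicate block), and none passed in dSCs (0 of 5, edgeR).

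Of 10 kinases and STATs, Jak1 was called in dSCs (log2 fold change 0.88, SE 0.23, adjusted p = 0.0463), and it was lost with the replicate block (0.159). The Jak1 call was also lost with DESeq2 size factors in edgeR, without a filter on low counts and in a fit of the compared groups alone. It held in 2 of the 12 fits with 1 library left out. Of 14 inhibitors, Socs2, another member of the SOCS family, rose in both injured regions, from 7.76 ± 3.02 CPM in iSCs to 36.2 ± 14.6 in dSCs (log2 fold change 2.22, SE 0.49, adjusted p = 0.0216; 0.0909 with the replicate block) and 37.1 ± 14.0 in bSCs (2.26, SE 0.49, adjusted p = 0.00834).

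Genes known as STAT3 targets moved in both directions, with 5, 7 and 6 of 20 tested called in the 3 comparisons, where 5.32%, 14.7% and 5.43% of all genes were. Ccnd1 (cyclin D1) and Birc5 (survivin), both cell cycle genes, rose in dSCs and bSCs. Ccnd1 had log2 fold changes of 3.25 (SE 0.31, adjusted p = 0.000438) and 3.22 (SE 0.31, adjusted p = 6.19e-05), and Birc5 of 2.52 (SE 0.46, adjusted p = 0.00764) and 4.17 (SE 0.50, adjusted p = 0.000276). Serpina3n, a serpin of the acute phase type, fell in bSCs against iSCs (-2.35, SE 0.34, adjusted p = 0.000698) and against dSCs (-1.97, SE 0.33, adjusted p = 0.00683). Cebpd, a transcription factor of the same response, fell in bSCs against iSCs (-1.66, SE 0.35, adjusted p = 0.00668) and against dSCs (-1.70, SE 0.35, adjusted p = 0.0166, and 0.064 with the replicate block). Atf3, an injury-response transcription factor, was lower in bSCs than in dSCs (-2.60, SE 0.52, adjusted p = 0.0149), and its 4 dSC libraries held between 261 and 294 CPM. Fos fell in dSCs and bSCs and Junb in bSCs against iSCs, with the spread in iSCs given above. Of 12 fits with 1 library left out, the Fos call held in 4 for dSCs and 10 for bSCs, and the Junb call in 7. Fos in dSCs and Junb in bSCs were also lost in fits of the compared groups alone.

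Il11ra1, Junb and Lcn2 in bSCs against iSCs lie past the 8 genes that the rule names there and were chosen after their values were seen. Lcn2, an acute phase gene, had 0 counts in all bSC libraries and 34.6 CPM in 1 iSC library, with at most 3.90 in the other 3. Gfap was at 0 in 3 of 4 dSC libraries and in 1 of 4 iSC libraries, and held 15.2 to 35.5 CPM in bSCs. Hif1a was higher in dSCs than in iSCs (log2 fold change 1.14, adjusted p = 0.0317), and Mcl1 was lower in bSCs than in dSCs (-1.10, adjusted p = 0.0382, and 0.0978 with the replicate block). With each of the 12 libraries left out in turn, the Hif1a call held in 4 fits and the Mcl1 call in 3. The Mcl1 call was also lost in a fit of the compared groups alone. Over the 25 calls of pathway genes in pooled nerves, 15 held with the replicate block, and 12 held without any 1 library, among them Osm, Ccnd1 and Birc5 in dSCs, those 3 with Socs2, Serpina3n and Cebpd in bSCs against iSCs, and Serpina3n and Atf3 in bSCs against dSCs.

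**Figure D3:**
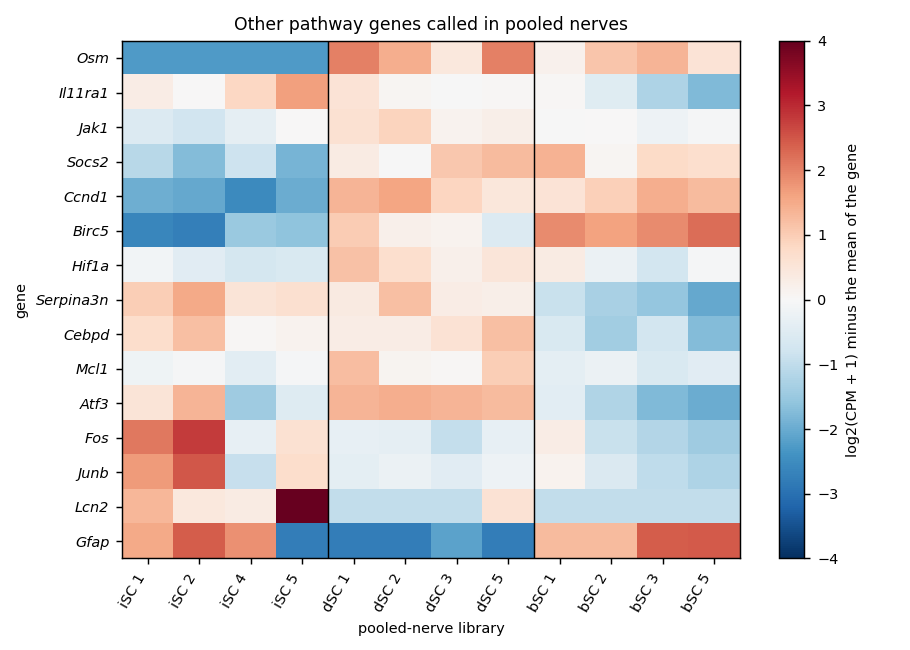
Log2(CPM + 1) of 15 other pathway genes called in at least 1 comparison (rows), minus the mean of each gene, in the 12 pooled-nerve libraries (columns), with red above and blue below the mean. Osm is at its lowest in all 4 iSC libraries, and Serpina3n, Cebpd and Atf3 are below the gene's mean in all 4 bSC libraries.

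In the single nerves, 0 of the 8 members tested passed in edgeR's test in any of the 13 comparisons, which covered each day against iSCs, bSCs against dSCs over days 4 to 10, the change of that difference with day, and any dSC day against iSCs. At an unadjusted p under 0.05 there were 5 values, for Il6 in dSCs at day 1, Clcf1 in dSCs at day 2, Lif in bSCs at day 10, and Clcf1 and Osmr between bSCs and dSCs. DESeq2 called 1 member in 1 comparison, Clcf1 between bSCs and dSCs, and 0 in the other 12. It called more genes of every kind, with 3.76% of all genes between bSCs and dSCs. Its shares were 2.15%, 3.06%, 9.48%, 5.55%, 2.56% and 2.87% in dSCs from day 1 to day 10, and 8.29%, 9.2%, 3.65% and 8.6% in bSCs from day 4 to day 10, against iSCs. They were 0.0515% for the change with day and 4.58% for any dSC day. In edgeR few genes of any kind passed, with 0.18%, 0.445%, 1.73%, 0.554%, 0.303% and 0.354% of 15519 genes in dSCs from day 1 to day 10, and 1.57%, 1.33%, 0.303% and 1.3% in bSCs from day 4 to day 10, all against iSCs. The share was 0.103% in bSCs against dSCs, 0% for the change of that difference with day and 0.767% for any dSC day. Without the like pair and without the 4 libraries with few detected genes, again 0 members were called by edgeR in each comparison.

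The early days brought the largest values of 2 ligands. Il6 held 33.6, 11.5 and 6.57 CPM in dSCs at day 1 and 6.36, 10.7 and 8.02 CPM at day 2. The iSC libraries held 0, 0.179, 3.33, 1.27 and 1.43 CPM, below all libraries of days 1 and 2. From day 4 to day 10 dSCs ranged from 0 to 15.9 CPM, and bSCs from 0 to 8.13 CPM. Of these groups dSCs at day 8, with 4.47, 6.65 and 10.5 CPM, were also above all iSC libraries, and the others overlapped them. The log2 fold change of Il6 at day 1 was 3.76 (SE 1.83, unadjusted p = 0.0485, adjusted p = 0.739), and 3.33 (SE 2.24) without the 4 libraries with few detected genes.

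Clcf1 was highest in dSCs at day 2, with 42.2, 41.3 and 62.8 CPM, each above any other single-nerve library, of which the next held 28.8 CPM. At day 1 its dSC libraries held 9.41, 0 and 9.07 CPM, and in iSCs 0, 0, 9.30, 2.24 and 0.408 CPM. At days 4 to 10 dSCs ranged from 3.66 to 28.8 CPM, with a median of 13.03. The log2 fold change at day 2 was 4.33 (SE 1.62, unadjusted p = 0.0121, adjusted p = 0.35), and 3.71 (SE 1.66) without the 4 libraries with few detected genes. Lif ranged from 0 to 13.4 CPM in iSCs and from 0 to 20.2 CPM over all 18 dSC libraries. In bSCs it spanned 1.94 to 41.2 CPM at days 4 to 8 and was at most 0.624 CPM in the 3 libraries of day 10 (log2 fold change against iSCs -4.21, SE 2.04, unadjusted p = 0.0479, adjusted p = 0.316).

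**Figure D4:**
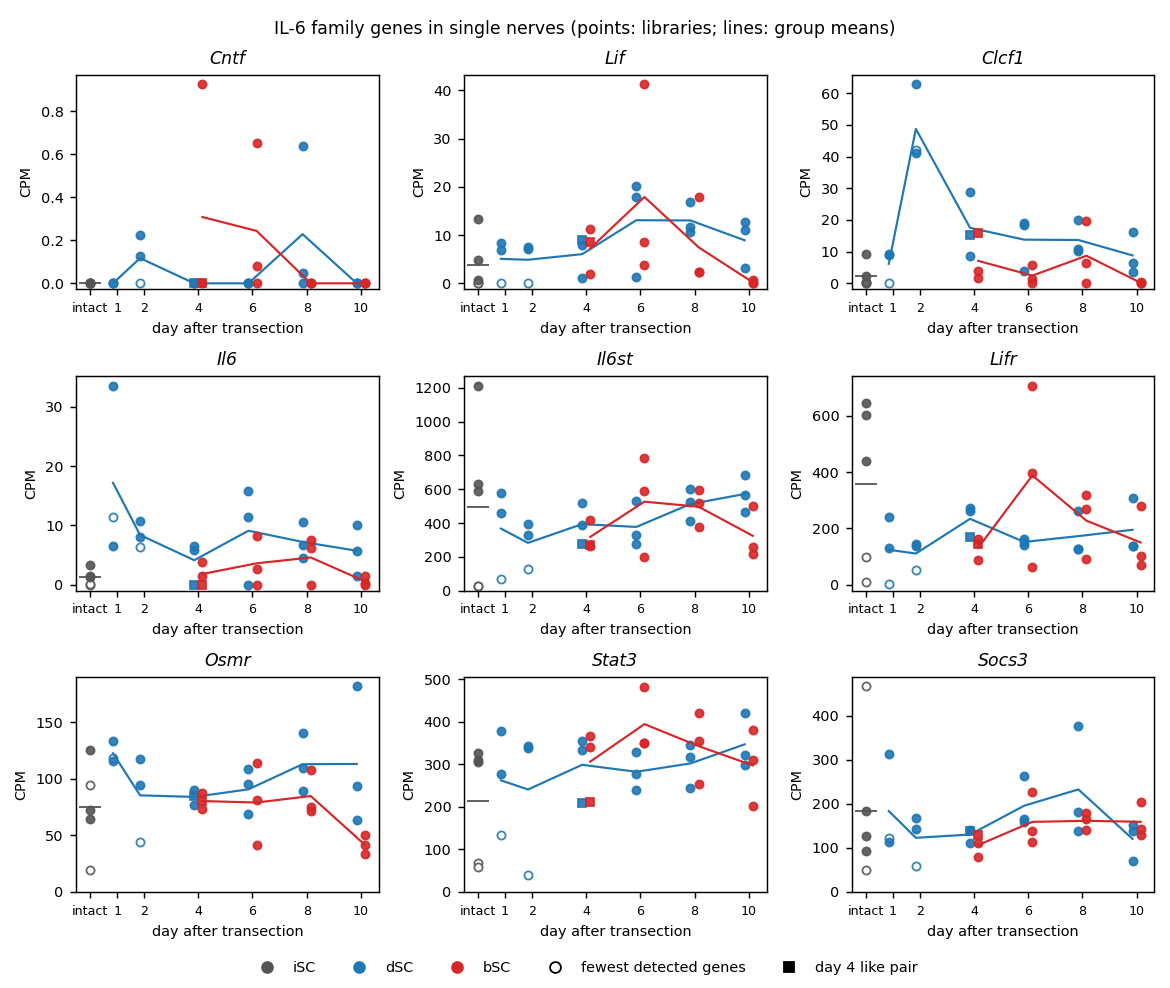
CPM (y axis, 1 panel per gene, own scale) of the 9 members against day after transection (x axis, intact nerves at the left) in 35 single-nerve libraries, with lines through the group means of dSCs and bSCs. Open circles are the 4 libraries with the fewest detected genes and squares the pair of like libraries at day 4. Clcf1 peaks in dSCs at day 2 with 41.3 to 62.8 CPM, and the 2 open iSC points lie far below the other 3 for Il6st, Lifr and Stat3.

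For the receptors and Stat3, the iSC group was split by the libraries with few detected genes. Lifr held 646, 440 and 603 CPM in iSC replicates 3, 4 and 5, and 97.2 and 9.68 CPM in replicates 0 and 1. Il6st held 1212, 588 and 628 CPM against 26.4 and 25.1 CPM, and Stat3 304, 310 and 327 CPM against 67.5 and 59.5 CPM, in the same order. With all 35 libraries Lifr in dSCs at day 2 had a log2 fold change of -1.70 (SE 0.92, adjusted p = 0.61). When the 4 libraries were left out, a choice made after the data had been seen, the 3 remaining iSC libraries of Lifr lay above all 16 remaining dSC libraries, which ranged from 126 to 309 CPM. Its log2 fold change then ran from -1.97 (SE 0.71, adjusted p = 0.407) at day 2 to -1.19 (SE 0.60, adjusted p = 0.317) at day 4 in dSCs, and the smallest adjusted p of Lifr was 0.0678, in bSCs at day 4 (-2.05, SE 0.61). Il6st without those libraries held 276 to 687 CPM in dSCs, against 588 to 1212 CPM in iSCs, and these ranges overlapped. Summed endothelial markers were 3582, 2933 and 3593 CPM in iSC replicates 3, 4 and 5, against 227 to 1622 CPM in the remaining dSC libraries. They were 2937 and 1355 CPM in iSC replicates 0 and 1. Their part in the Lifr and Il6st differences was not tested. At day 6 the bSC libraries held 61.6, 706 and 396 CPM of Lifr against 139, 163 and 152 CPM in dSCs, and 202, 591 and 787 CPM of Il6st against 326, 277 and 528 CPM. For both genes 2 of the 3 bSC libraries were above all dSC libraries of that day and the third below them, unlike the order in pooled nerves.

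Osmr in single nerves held 19.7, 94.3, 64.2, 72.6 and 126 CPM in iSCs, and its dSC libraries covered 44.0 to 182 CPM, with 133, 118 and 116 CPM at day 1. At day 6, the day of the pooled nerves, dSCs held 108, 68.6 and 95.2 CPM and bSCs 81.0, 41.7 and 114 CPM, so that these groups overlapped each other and the iSC libraries. Across days 4 to 10 the 12 dSC libraries ranged from 63.9 to 182 CPM and the 12 bSC libraries from 33.5 to 114 CPM. The lowest bSC values were those of day 10, with 41.3, 33.5 and 50.2 CPM, below all 3 dSC libraries of that day. Socs3 ranged from 50.2 to 466 CPM in iSCs, from 57.9 to 377 CPM over all dSC libraries and from 78.6 to 227 CPM over all bSC libraries. At day 6 of the single nerves dSCs held 159, 262 and 165 CPM of Socs3, within the iSC range. The 2 experiments were scaled separately, and the difference between them was not tested.

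Bridge and distal libraries of the same mouse could be set side by side in 10 pairs in which the title and the animal label name the same partner. Averaged over days 4 to 10, Clcf1 had a log2 fold change of -2.53 between bSCs and dSCs (SE 0.93, unadjusted p = 0.0103, adjusted p = 0.3), and it was lower in bSCs in 8 of 10 pairs. With the animal as a replicate block, over all 11 pairs by animal label, the log2 fold change was -3.22 (SE 1.03, adjusted p = 0.233). Without a block it was -2.94 (SE 1.03, adjusted p = 0.278) when the like pair was left out, and -2.65 (SE 0.82, adjusted p = 0.0354) with DESeq2. Osmr had a log2 fold change of -0.53 (SE 0.25, unadjusted p = 0.0403, adjusted p = 0.513) and was lower in bSCs in 8 of 10 pairs, the direction it had in the pooled nerves. Those 8 include the like pair, at -0.09, and a pair of day 8 at -0.03. Stat3 was higher in bSCs in 9 of 10 pairs, by a median of 0.24 on the log2 scale, with a fitted log2 fold change of 0.12 (SE 0.29). Its pairs of day 4, the like pair among them, differed by only 0.02 to 0.05. Il6 was lower in bSCs in 7 pairs, higher in 1 and equal in the others. The other tested members were split, with bSCs higher in 5 of 10 pairs for Lif and in 4 of 10 for Il6st, Lifr and Socs3. With the block Lif had a log2 fold change of -2.56 (SE 0.72, adjusted p = 0.177), against -1.38 (SE 0.93, adjusted p = 0.805) without it. Both average days 4 to 10 and have the opposite sign to the 2.51 of the pooled nerves, which is of day 6 alone. At day 6 the single-nerve pairs of Lif stood at -1.21, 1.21 and 1.46. The median of the 10 Lif pairs was 0.21, and the pair of day 10 stood at -6.36.

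**Figure D5:**
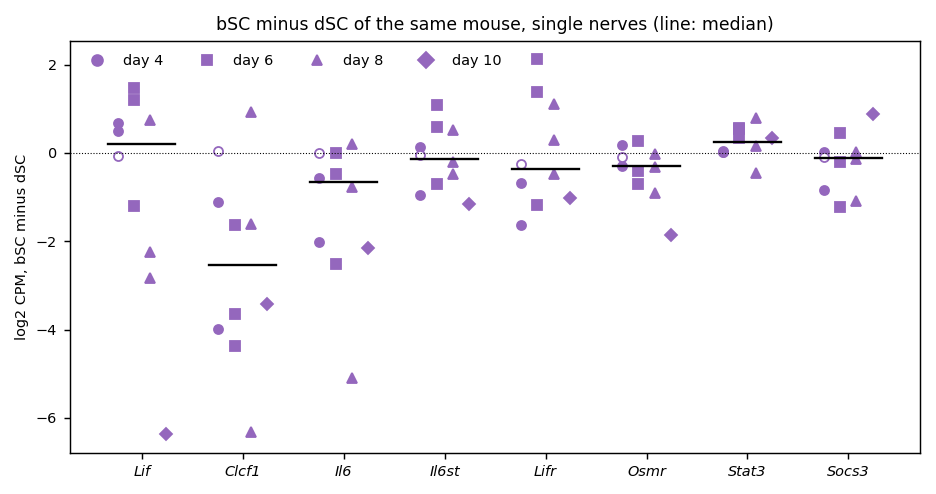
Difference in log2 CPM between the bSC and dSC library of the same mouse (y axis) for 8 members (x axis) in 10 pairs, with the day as the symbol, the pair of like libraries open, and the median as a line. The median is -2.53 for Clcf1 and lies between -0.67 and 0.24 for the other 7.

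Among the other pathway genes of the single nerves, 13 values passed the test in single-day comparisons with iSCs, and Timp1 and Il11ra1 passed that for any dSC day. Each comparison tested 55 of these genes. Of all genes, 0.18% to 1.73% passed in the single-day comparisons and 0.767% for any dSC day. Timp1, a metalloproteinase inhibitor that STAT3 is known to induce, rose early. It held 16.1 to 35.0 CPM in iSCs, 190, 560 and 242 CPM in dSCs at day 1, and 1374, 314 and 448 CPM at day 2. Macrophage markers summed to 2656 to 5982 CPM at day 1 and 3097 to 6592 CPM at day 2, above all iSC libraries, and neutrophil markers to 19.8 to 102 CPM and 1.72 to 62.5 CPM against at most 14.7 CPM in iSCs, and their part in the Timp1 rise was not tested. Its log2 fold change was 3.65 (SE 0.67, adjusted p = 0.0112) at day 1 and 4.76 (SE 0.70, adjusted p = 0.000408) at day 2 in dSCs, and 3.10 (SE 0.66, adjusted p = 0.0114) at day 4 and 2.61 (SE 0.66, adjusted p = 0.0369) at day 10 in bSCs. The call at day 1 was lost without dSC day 1 replicate 1 and without the 4 libraries with few detected genes, that at day 10 was also lost without the 4 libraries, and that at day 2 held under every alternative run. The other 12 calls were lost in fits of the compared groups alone. Il11ra1 fell in bSCs at day 4 (-2.10, SE 0.54, adjusted p = 0.0378), day 6 (-2.28, SE 0.54, adjusted p = 0.0274) and day 10 (-3.76, SE 0.59, adjusted p = 0.000898), against 229 to 1080 CPM in iSCs, of which the 2 highest values were those of replicates 0 and 1. Without the 4 libraries the day 4 call was lost, and without iSC replicate 0 or 1 that of day 6 as well. Osm, which did not pass the test in single nerves, held 46.7 to 70.1 CPM in dSCs at day 4, when macrophage markers summed to 11457 to 14031 CPM, and 0 to 5.30 CPM in iSCs, where they summed to 302 to 1358 CPM.

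Calls at day 4 that missed the threshold without the like pair were those of Mcl1 (log2 fold change 1.65) and Ptpn6 (3.28) in dSCs and of Birc5 (3.06) and Il11ra1 in bSCs. The loss was not particular to that pair. Ptpn6 was also lost without any 1 dSC library of day 4, and Mcl1 without dSC replicate 2. Birc5 and Il11ra1 were lost without any 1 bSC library of day 4. Each of these calls was lost as well on leaving out some iSC libraries singly. Birc5 (3.15) and Ccnd1 (1.70, SE 0.36, adjusted p = 0.0137) rose in bSCs at day 10, of which Birc5 was lost without the like pair and Ccnd1 without bSC day 10 replicate 0 or 3. That Birc5 call held in 17 of 35 fits with 1 library left out.

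The genes whose pattern was most like that of each member were taken from 11901 genes, by Pearson's r of mean log2 CPM over the 11 single-nerve groups. Serpina3n was nearest to Osmr (r = 0.95), ahead of Zscan22 (0.94) and Athl1 (0.93). Stat3 was followed by Apobec3 (0.98), B4galt3 (0.96) and Angptl2 (0.96), and Socs3 by Sort1 (0.86), Rpusd1 (0.85) and the immediate early gene Ier2 (0.85). Trim2 was nearest to Lif (0.95), Ankrd49 to Il6 (0.91), Dazap1 to Clcf1 (0.93), Slc4a1ap to Il6st (0.94) and Ints3 to Lifr (0.95). These are descriptions over 11 means that share libraries of uneven depth and composition, chosen as the highest of many.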

How the data were processed

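RNA-seq libraries of 47 sorted mouse SC samples were analysed from gene counts deposited by the authors, who aligned reads with TopHat2 (version 2.0.11, per the labels) to mm9 and counted them per gene with HTSeq, which sets reads on more than 1 gene aside. Lanes of a library were summed, and 92 spike-in rows and the unassigned-read rows were left out of library sizes. No column of values was left without a sample. Pooled nerves (12 libraries) and single nerves (35 libraries) were fitted separately with edgeR's quasi-likelihood test (edgeR 4.0.16, limma 3.58.1, R 4.3.3), with TMM scaling, filterByExpr by group, 1 coefficient per group and all groups of an experiment sharing the estimate of spread. P-values were two-sided, adjusted by Benjamini-Hochberg over all genes tested (13751 pooled, 15519 single), and called at 0.05. CPM values are scaled by TMM, and pair differences and likeness used log2 CPM with a prior count of 2. The code was tested on simulated counts.

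Cntf and Il6 in pooled nerves and Cntf in single nerves did not pass the filter, so that 7 and 8 of the 9 members were tested. The members and lists were chosen with earlier results of these data known. All members were named, and of the pathway lists every gene called in a comparison, up to 8 by smallest adjusted p. The values of 1 listed gene are not reported here, and it is included in the counts of the lists. Libraries of 1 group are separate mice, or separate pools of mice, per the labels. Reads were amplified by PCR without molecular identifiers, so that limits from counts cover counting error only. The limit for 0 counts was set at 3 counts per library.

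Pairing was taken from the animal named in the labels. The labels give different animals to the iSC and dSC day 2 libraries that share the replicate numbers 0, 3 and 4, and these were fitted as independent, although the naming of the deposited tables leaves it possible that they came from the same mice. Deviations from the group means of libraries of the same animal correlated with a mean r of -0.0143 over 10 pooled pairs (lowest -0.13, highest 0.0802) and 0.146 over 11 single-nerve pairs (lowest -0.0624, highest 0.677). Results were recomputed with DESeq2 1.42.0, with its size factors in place of TMM, with no filter, with a filter of at least 100 counts in 85% of libraries for the single nerves, with the compared groups alone, with each library left out, and with the animal as a replicate block. Alternatives chosen after seeing the data left out the day 4 pair of like libraries or the 4 libraries with fewer than 11500 detected genes, or paired day 10 by title. Promoter sequences were from RefSeq (GRCm38.p6), with 8 of 9 members matched, and gene positions from GENCODE M1 on NCBIM37. Rat libraries were not analysed here.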

Additional observations from a re-analysis of the deposited data

Results flagged for a closer look

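Of 34 groups of 4 or 5 libraries of the members, 7 held 1 library far from the others by Dixon's criterion. The rate of about 1 of 20 groups by chance holds for normally distributed values. It does not hold for low counts with many zeros, where 1 library with counts among libraries at 0 always meets the criterion. The 7 groups are therefore a description and not an excess over chance. Lif stood at 14.0 CPM in pooled iSC replicate 5, with 1.51 to 3.28 CPM in the other iSC libraries. Lifr stood at 214 CPM in pooled dSC replicate 2, with 108 to 115 CPM in the others, and that library also held the highest Osmr and Stat3 values of its group. Il6 stood apart in 1 library of each of 3 groups, at 2.24 CPM in pooled iSC replicate 2 and 1.46 CPM in bSC replicate 2 with 0 counts in the others, and at 1.70 CPM in dSC replicate 3 with at most 0.224 CPM in the others. Cntf was at 0.585 CPM in pooled bSC replicate 2, with at most 0.0466 CPM in the others. Clcf1 was at 9.30 CPM in single-nerve iSC replicate 3, with at most 2.24 CPM in the others.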

How the results depend on the processing

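The lower Osmr in bSCs than in dSCs of pooled nerves passed the threshold in every alternative run, with the same sign. For members that were not called, the order of group means could change with the libraries used. In single nerves Stat3 had a mean of 282 CPM in dSCs at day 6. The iSC mean was 214 CPM over all 5 libraries and 314 CPM over the 3 without few detected genes. Il6st in dSCs at day 8 had a mean of 512 CPM, against iSC means of 496 and 809 CPM. With the animal as a replicate block, 0 members were called in dSCs against iSCs, 0 in bSCs against iSCs and 1 in bSCs against dSCs, and in the single nerves the block called 0 members, as did the fit without it. DESeq2 called 3 members in bSCs against iSCs, 2 in bSCs against dSCs and, in the single nerves averaged over days 4 to 10, 1 in bSCs against dSCs, where it called 22.6%, 14.1% and 3.76% of all genes. Without a filter on low counts, and with the compared groups alone, 0 members were called in bSCs against iSCs. With each library left out in turn, between 0 and 2 members were called in dSCs against iSCs, and between 0 and 3 in bSCs against iSCs. The cause of these differences was not tested. In the single nerves 0 members were called by edgeR under each alternative run. Lif, Clcf1 and Il6 lay near the limit of detection in several groups, where 1 library could set a mean. For Cntf, low expression and reads set aside on bases shared with Zfp91 cannot be told apart.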
